A study of Mus musculus with 10 samples.

Results

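The 32 genes described here encode the unfolded protein response of the endoplasmic reticulum (ER) and the integrated stress response that shares its ATF4 branch. They were taken by symbol from a list, and all 32 were found among the 24368 genes of the table. They comprise 15 ER chaperones and folding enzymes, 4 genes of ER-associated degradation, 3 sensors and transcription factors of the ER branches, and 10 genes of the ATF4 arm. RNA-seq libraries came from proximal jejunum: 5 from mice labelled cKO, a conditional HuR knockout specific to gut epithelium, and 5 from littermates labelled WT. HuR, the product of Elavl1, is an RNA-binding protein, and the study asks what it does in the absorption of dietary fat. The Cre line, the deleted exons, strain, age, sex, diet and time of day are not stated in these sources. The RNA came from the tissue, so cells outside the epithelium contribute to every value.

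Proteins that enter the ER are folded by chaperones such as BiP (Hspa5) and GRP94 (Hsp90b1) and by disulfide isomerases. When unfolded protein builds up, the membrane sensors IRE1, PERK and ATF6 signal to the nucleus. ATF6 and spliced XBP1 induce chaperones and degradation factors, while PERK phosphorylates eIF2 alpha, which lowers translation in general and raises that of ATF4. ATF4 is also reached through other eIF2 alpha kinases, for instance on amino acid shortage, and induces genes of amino acid supply and the factors CHOP (Ddit3) and Trib3. Goblet, Paneth and plasma cells secrete much protein, and enterocytes assemble chylomicrons in the ER, so the gut mucosa carries a sizeable ER load. Read counts per gene do not show Xbp1 splicing, ATF6 cleavage or ATF4 translation.

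The promoters of 4 genes are shown because they hold the motifs searched for in the arms compared here. RefSeq promoters (GRCm38.p6, from 250 bases before to 50 after the start) were matched by symbol for 28 of the 32 genes and held 29 windows. Hyou1, Manf, Atf6 and Ern2 had no match, so their promoters were not searched. The searched letters were CCAAT and CCACG with 9 bases of any kind between them (ER stress response element), ATTGG and CCACG with 1 base between them (element II), TGACGTGG (XBP1 and ATF6 binding element) and TGATGNAAN (C/EBP-ATF response element), each on both strands. The ER stress response element stood in 7 of 13 chaperone promoters (53.8%), against 0.119% of all 32851 promoters, and in 0 of 11 promoters of the ATF4 arm. The C/EBP-ATF response element stood in 4 of 11 promoters of the ATF4 arm (36.4%) and in 0 of 13 chaperone promoters, against 3.95% of all promoters. Element II was found in Herpud1 and Dnajb11 and in 0.0365% of all promoters, and the XBP1 and ATF6 binding element in 0 of 29 windows and in 0.676% of all. Motifs and genes were both chosen for these responses, so the shares describe the lists and carry no test. A match describes letters, not binding. Capitals mark the matches in these windows, read 5′ to 3′:
Hspa5 promoter, chr2:34771840-34772139, plus strand: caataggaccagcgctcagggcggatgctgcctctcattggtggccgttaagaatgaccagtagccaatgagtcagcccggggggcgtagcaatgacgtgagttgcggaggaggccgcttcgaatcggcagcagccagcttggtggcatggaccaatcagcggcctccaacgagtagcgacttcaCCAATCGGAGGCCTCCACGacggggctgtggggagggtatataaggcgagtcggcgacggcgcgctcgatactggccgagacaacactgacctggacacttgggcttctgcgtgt
Hsp90b1 promoter, chr10:86705395-86705694, minus strand: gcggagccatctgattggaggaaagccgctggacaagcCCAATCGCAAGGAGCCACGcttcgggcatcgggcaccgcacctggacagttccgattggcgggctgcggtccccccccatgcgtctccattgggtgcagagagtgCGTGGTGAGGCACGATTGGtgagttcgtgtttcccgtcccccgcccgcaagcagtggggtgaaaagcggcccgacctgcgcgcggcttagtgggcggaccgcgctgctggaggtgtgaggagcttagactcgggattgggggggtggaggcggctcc
Herpud1 promoter, chr8:94386179-94386478, plus strand: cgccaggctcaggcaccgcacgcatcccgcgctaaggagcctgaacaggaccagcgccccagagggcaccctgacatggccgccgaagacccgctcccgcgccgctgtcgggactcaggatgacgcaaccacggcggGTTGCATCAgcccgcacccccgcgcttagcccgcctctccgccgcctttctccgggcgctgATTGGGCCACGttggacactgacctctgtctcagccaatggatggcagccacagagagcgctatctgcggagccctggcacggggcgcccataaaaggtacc
Trib3 promoter, chr2:152344011-152344310, minus strand: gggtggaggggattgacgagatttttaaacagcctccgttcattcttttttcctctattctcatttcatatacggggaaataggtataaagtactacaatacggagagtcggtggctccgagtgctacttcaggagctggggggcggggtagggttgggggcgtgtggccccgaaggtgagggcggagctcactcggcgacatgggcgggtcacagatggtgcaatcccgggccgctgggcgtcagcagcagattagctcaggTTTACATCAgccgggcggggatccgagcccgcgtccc

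The Hspa5 window held 1 ER stress response element, at 65 to 47 bases before the start, and the Hsp90b1 window held 2, on opposite strands. Herpud1, an ER membrane protein that serves in the degradation of misfolded proteins, was the 1 gene with motifs of both branches. Its element II lay 52 to 42 bases before the start and its C/EBP-ATF response element 113 to 105 bases before it. In Trib3, which encodes a pseudokinase, the match lay 14 to 22 bases after the start. Asns, Chac1 and Slc7a11 were the other genes of the ATF4 arm with this motif.

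**Figure D1:**
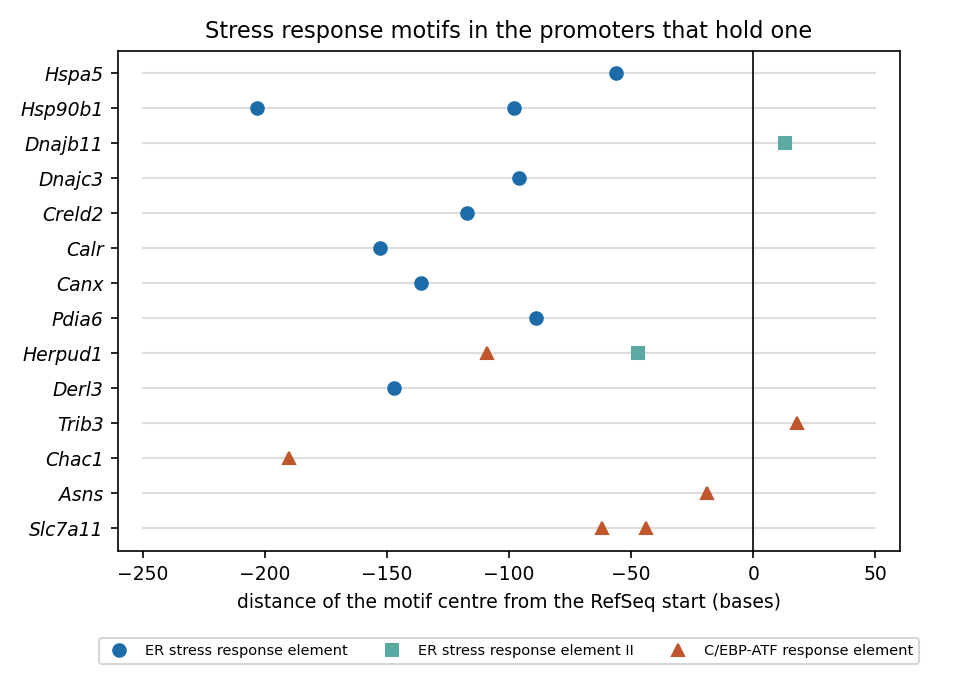
Position of each searched motif (centre, in bases from the RefSeq start) in the 14 genes whose window held at least 1; grey lines are the windows, circles the ER stress response element, squares element II, triangles the C/EBP-ATF response element. Circles appear in 7 chaperone genes and Derl3, triangles in 4 genes of the ATF4 arm and in Herpud1, which holds a square and a triangle.

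Values are read counts scaled by each library's size factor, called normalised reads. The libraries held between 16063987 (cKO 1) and 18927440 (cKO 5) reads, and 31 of the 32 genes reached the filter, a mean of 10 over the 10 libraries. Slc7a11, the cystine transporter gene, stayed under it and was not tested. Differences were tested with limma on log2(value + 1), adjusted over 14062 genes by Benjamini-Hochberg. None of the 31 genes passed an adjusted p of 0.05 in either direction, where 1.32% of all genes tested passed (0.441% higher and 0.882% lower in cKO). Without cKO 3 and cKO 5, 0 passed again, against 0.399% of all genes tested. At an unadjusted p of 0.05, 5 were higher in cKO (Hspa5, Manf, Creld2, Hsp90b1 and Hyou1, all chaperones or folding factors) and 2 lower (Herpud1 and Ddit3), against 8.46% and 10.1% of all genes tested. With the recovered reads, edgeR's quasi-likelihood test passed 0 of the 31 (1.29% of all genes) and DESeq2 passed 2 (5.33% of all genes), Hspa5 and Manf. Elavl1 itself averaged 633 ± 60.6 normalised reads in cKO and 666 ± 36.0 in WT (SD, n = 5 each), which does not check the deletion because the deleted exons are unknown. Mitochondrial genes took 2.80% to 9.48% of reads in cKO and 2.69% to 5.88% in WT, with the highest share in cKO 1. The 12 clock genes summed to 5088 and 5414 normalised reads in cKO 3 and cKO 5, below the other 8 libraries (7366 to 12965). Between cKO and WT, 8 of the 12 had a negative log2 fold change and 4 a positive one (-2.61 to 0.42), so the sum does not describe each gene.

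Per kilobase of gene length, the most abundant of the 32 genes was P4hb. It encodes protein disulfide isomerase, which is also a subunit of the microsomal triglyceride transfer protein that loads fat onto chylomicrons, and of collagen prolyl hydroxylase. It stood at 17876 ± 4753 normalised reads per kilobase in cKO and 20951 ± 1886 in WT (SD, n = 5 each). Hspa5 came next, at 5867 ± 1632 in cKO and 3252 ± 1047 in WT, followed by Calr, the calcium-binding chaperone calreticulin, at 3176 ± 928 in cKO and 2763 ± 373 in WT. Pdia3 and Hsp90b1 were at 3082 and 2446 in cKO and at 2556 and 1672 in WT. Within each group, the means of Calr and Pdia3 differed from each other by less than the SD of either gene. Of the ATF4 arm, Atf4 was the most abundant gene per kilobase, at 1059 ± 122 in cKO and 1039 ± 112 in WT. The lowest levels per kilobase were those of Ern2, with 12.8 in cKO and 11.2 in WT, and of Slc7a11, with 0.360 in cKO and 0.907 in WT.

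**Figure D2:**
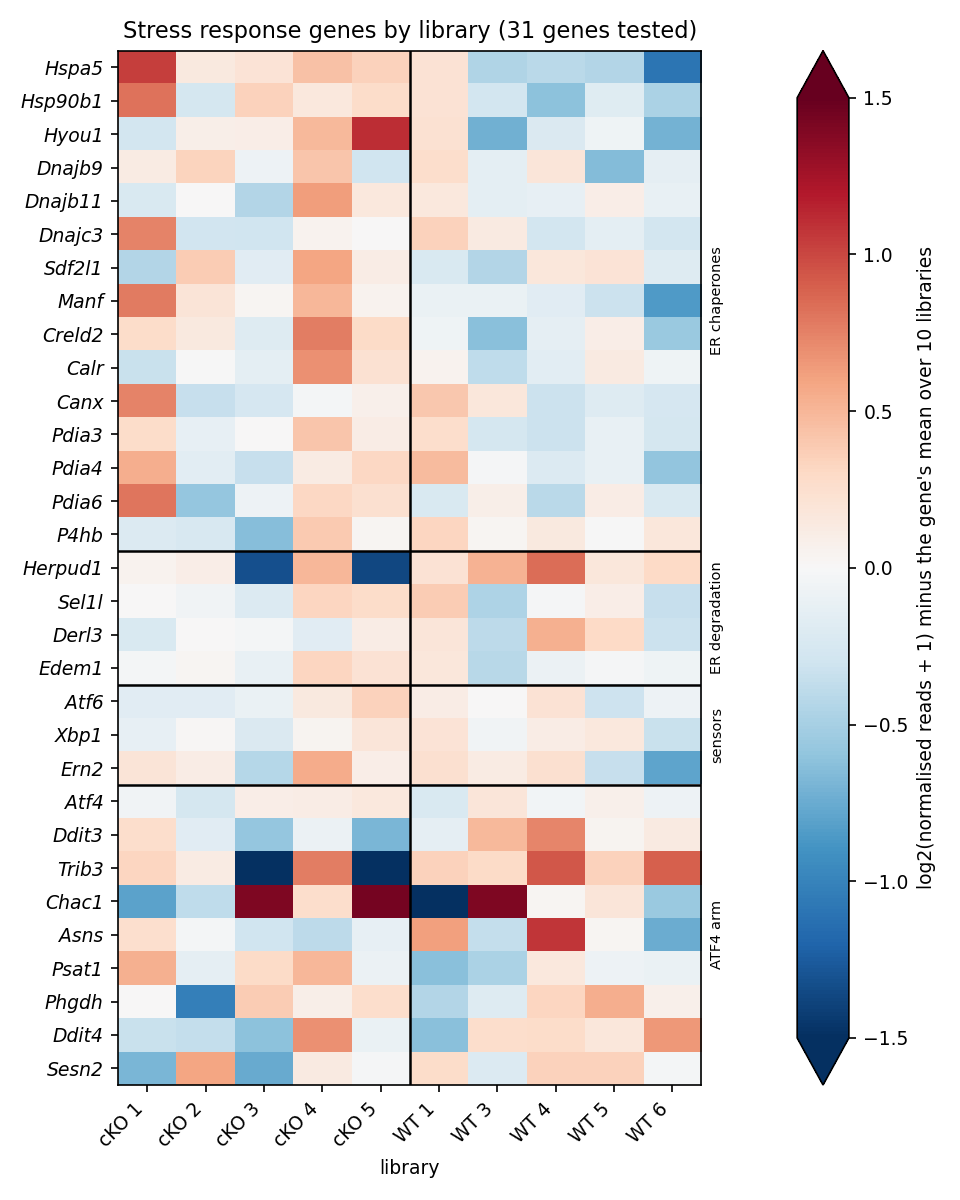
Log2(normalised reads + 1) of the 31 genes tested in each library, minus the mean of each gene over the 10 libraries (colour, log2 units; values past the ends of the scale take the end colour). Rows are grouped by role and the 5 cKO libraries stand left of the 5 WT libraries; Herpud1 and Trib3 are dark blue in cKO 3 and cKO 5 alone.

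Among the ER chaperones, Hspa5 showed the largest difference. BiP, its product, is the ER member of the Hsp70 family and holds the 3 stress sensors inactive in unstressed cells. Hspa5 had 36769, 19804, 20632, 24176 and 22677 normalised reads in cKO 1, 2, 3, 4 and 5, against 20684, 13039, 13525, 13188 and 8324 in WT 1, 3, 4, 5 and 6. The groups overlapped through WT 1 alone, which lay above cKO 2 and cKO 3, and cKO 1 lay far above the other cKO libraries. The fitted difference was 1.83-fold (log2 fold change 0.87 ± 0.24 SE, 95% interval 0.36 to 1.38, limma adjusted p = 0.0830). The call was made with library totals in place of the size factors (0.97, limma adjusted p = 0.0303) and in DESeq2 (0.85, adjusted p = 0.0167), but not in edgeR (0.86, adjusted p = 0.0867). The authors' deposited table gives it a log2 fold change of 0.79 and an adjusted p of 0.0377, and it was the 1 gene of the 32 under 0.05 in the authors' deposited table (4.22% of the genes tested here). Which libraries entered that comparison is not stated in these sources.

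Manf, a small secreted protein that is retained in the ER by BiP, was the 1 member whose groups did not overlap. It had 4285, 2842, 2537, 3522 and 2589 normalised reads in cKO 1, 2, 3, 4 and 5, against 2314, 2318, 2208, 1982 and 1375 in WT 1, 3, 4, 5 and 6. Every cKO value lay above every WT value, which held for 1.86% of all genes tested. The log2 fold change was 0.62 ± 0.20 SE (1.54-fold, 95% interval 0.21 to 1.04, limma adjusted p = 0.116). DESeq2 called it (0.63, adjusted p = 0.0411). The annotated span of Manf overlaps Rbm15b on the same strand and Dcaf1 on the other, which averaged 235 and 197 normalised reads, and the strand setting of the counting is not given.

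Hsp90b1, which encodes the chaperone GRP94, had 14021, 6651, 10081, 8895 and 9655 normalised reads in cKO 1, 2, 3, 4 and 5, against 9211, 6590, 5177, 6988 and 5742 in WT 1, 3, 4, 5 and 6 (log2 fold change 0.54 ± 0.21 SE, limma adjusted p = 0.197). The highest WT value, that of WT 1, lay above those of cKO 2 and cKO 4. Creld2, a secreted disulfide isomerase, had 1548, 1411, 1118, 2174 and 1555 in cKO 1, 2, 3, 4 and 5, against 1224, 824.2, 1159, 1367 and 869.5 in WT 1, 3, 4, 5 and 6 (0.51 ± 0.20 SE, limma adjusted p = 0.182). All cKO values but that of cKO 3 were above the WT range. Hyou1, the nucleotide exchange factor of BiP also called GRP170, had 1064, 1368, 1385, 1810 and 2779 in cKO 1, 2, 3, 4 and 5, against 1508, 780.7, 1110, 1230 and 790.5 in WT 1, 3, 4, 5 and 6 (0.60 ± 0.25 SE, limma adjusted p = 0.217). WT 1 lay above cKO 1, cKO 2 and cKO 3. The highest value was in cKO 5, while cKO 1, the highest library for Hspa5, Manf and Hsp90b1, was the lowest cKO library for Hyou1.

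**Figure D3:**
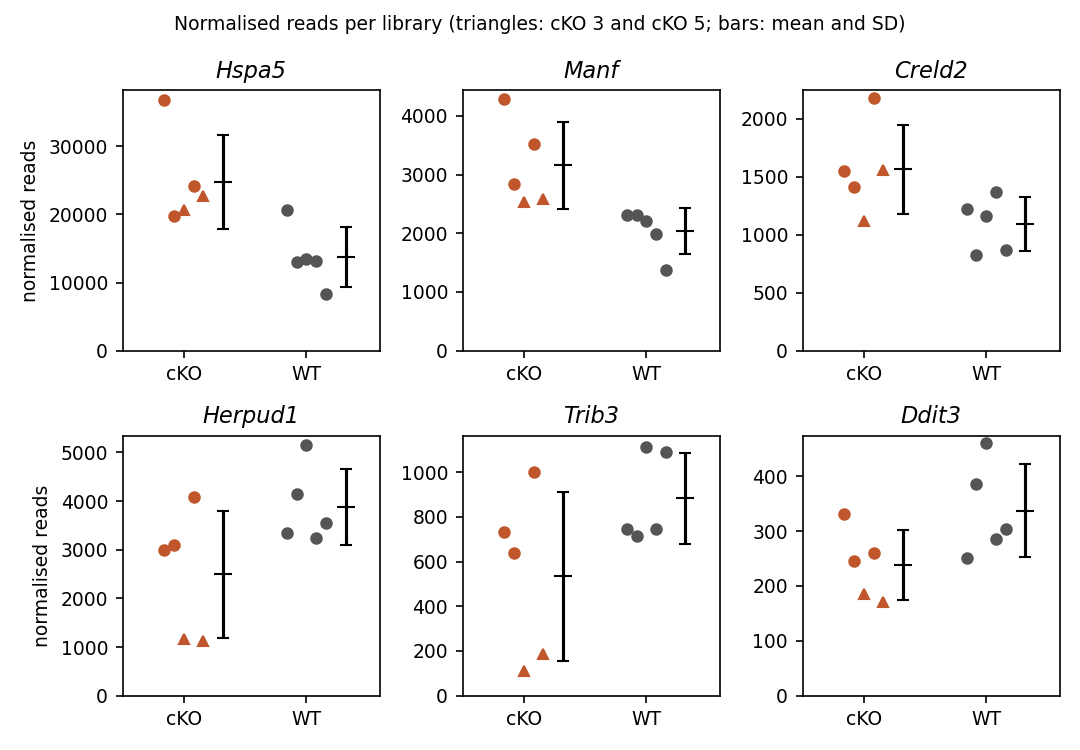
Normalised reads (y axes, from 0) of 6 genes in each library, cKO left of WT; triangles are cKO 3 and cKO 5, and the bar beside each group is its mean and SD (n = 5). The Manf groups do not overlap, and the triangles are the lowest points for Herpud1, Trib3 and Ddit3.

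Of the 15 chaperones and folding enzymes, 14 had a positive log2 fold change, against 51% of all genes tested, with a median of 0.20 against 0.010 for all genes tested. The count stayed at 14 in each of the other tests and scalings, and with 1 library or cKO 3 and cKO 5 left out it was 12 to 14. The other 9 positive genes had log2 fold changes from 0.05 (Dnajb11) to 0.27 (Pdia3), and none had an unadjusted p under 0.05. Pdia3, Pdia4 and Pdia6 are disulfide isomerases, and their log2 fold changes were 0.27, 0.19 and 0.27. The lectin chaperones Calr and Canx gave 0.17 and 0.08, and the BiP partners Dnajb9, Dnajb11, Dnajc3 and Sdf2l1 gave 0.20, 0.05, 0.09 and 0.19. P4hb gave the negative value, -0.26 ± 0.21 SE (limma adjusted p = 0.514), with 34914 (cKO 3) to 71508 (cKO 4) normalised reads in cKO and 54221 (WT 5) to 67931 (WT 1) in WT. These genes did not all peak in 1 library: 7 were highest in cKO 1, 7 in cKO 4 and Hyou1 in cKO 5. Without cKO 1 the median was 0.24 and Canx and Dnajc3 turned negative. cKO 1 was also the highest library for the sum of the 10 enterocyte markers, none of which was at 0 in all libraries (1632400 normalised reads, against 819627 to 1306750 in the other cKO libraries and 1073950 to 1234530 in WT). Over the 10 markers, 8 had a negative log2 fold change (median -0.20), 3 of them at an unadjusted p under 0.05, and none passed the limma test. The brush border genes Alpi and Lct had 14850 and 6142 normalised reads in cKO 1, below all WT libraries (21832 to 32799 for Alpi and 10409 to 17140 for Lct). The part of the enterocyte markers in the result was not tested.

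**Figure D4:**
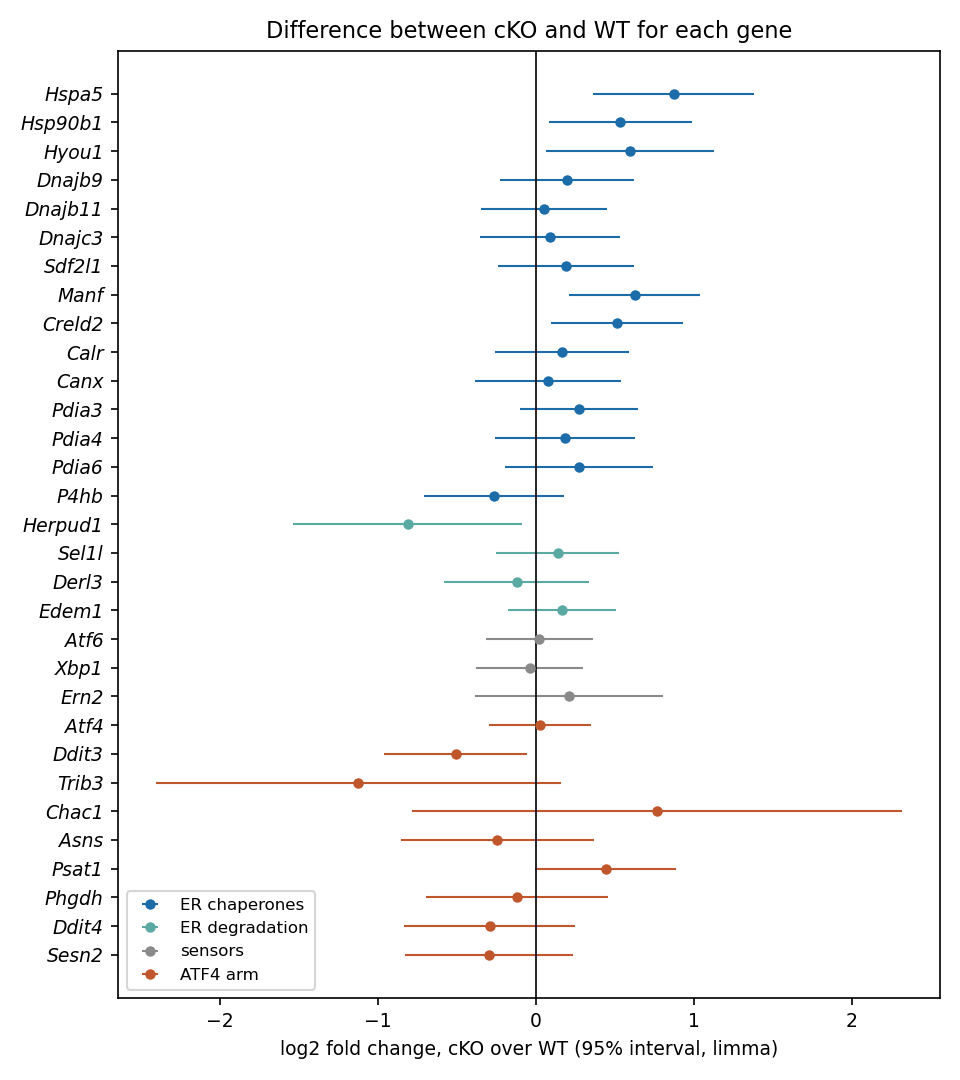
Log2 fold change of cKO over WT for each of the 31 genes tested (points), with the 95% interval from limma (lines), coloured by role. The intervals of Hspa5, Hsp90b1, Hyou1, Manf and Creld2 lie above 0 and those of Herpud1 and Ddit3 below it, before adjustment over all genes.

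In ER-associated degradation, Herpud1 stood apart from the other 3 genes. It had 2993, 3105, 1160, 4079 and 1122 normalised reads in cKO 1, 2, 3, 4 and 5, against 3346, 4135, 5146, 3242 and 3541 in WT 1, 3, 4, 5 and 6. The values of cKO 3 and cKO 5 lay far below the other 8 libraries, and cKO 4 lay within the WT range. The log2 fold change was -0.81 ± 0.34 SE (95% interval -1.53 to -0.08, limma adjusted p = 0.221) and was -0.19 without cKO 3 and cKO 5 (limma adjusted p = 0.723). Sel1l, the adaptor of the ubiquitin ligase HRD1, gave 0.14, Edem1, which hands misfolded glycoproteins to degradation, 0.17, and Derl3, a derlin of secretory cells, -0.12. Derl3 had 64.9 to 81.8 normalised reads in cKO and 57.7 to 110 in WT.

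The sensors and factors of the ER branches differed little. Atf6 averaged 702 ± 117 normalised reads in cKO and 689 ± 93.7 in WT, and Xbp1 3979 ± 427 in cKO and 4102 ± 580 in WT (SD, n = 5 each). Their log2 fold changes were 0.02 (95% interval -0.32 to 0.36) and -0.04 (-0.38 to 0.30). Changes of either sign within those limits remain compatible with the values, and the limits are not adjusted over all genes. Ern2, the IRE1 isoform of goblet cells and other mucosal epithelium, had 25.4 (cKO 3) to 51.2 (cKO 4) normalised reads in cKO and 19.5 (WT 6) to 40.9 (WT 4) in WT, with a log2 fold change of 0.21 (95% interval -0.38 to 0.81). The sum of the 9 goblet cell markers, Ern2 among them, ran from 71431 to 146071 in cKO and from 85343 to 147701 in WT. That of the 10 B and plasma cell markers, Derl3 among them, ran from 37518 to 94550 in cKO and from 67344 to 101221 in WT. The sum of the 8 Paneth cell markers ran from 3592 to 27611 in cKO and from 3174 to 19666 in WT. In none of these 3 lists did a gene pass the limma test, and no marker was at 0 in all libraries. Igha, the IgA heavy chain gene of plasma cells, had 13744 to 23828 normalised reads in cKO and 25780 to 33624 in WT, without overlap, as for 3.01% of all genes tested (log2 fold change -0.56, limma adjusted p = 0.143). The authors' deposited table gives it an adjusted p of 0.0212. Over the 10 B and plasma cell markers, 7 had a negative log2 fold change and 3 a positive one (median -0.20). For the 9 goblet cell markers, 7 were negative and 2 positive (median -0.15). For the 8 Paneth cell markers, 3 were negative and 5 positive (median 0.60). The part of these cells in the results was not tested. In tissue RNA, fewer cells of a type and less RNA per cell cannot be told apart.

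In the ATF4 arm, Atf4 itself averaged 2498 ± 287 normalised reads in cKO and 2449 ± 263 in WT (SD, n = 5 each), a log2 fold change of 0.03 with a 95% interval of -0.29 to 0.35. Trib3, which binds ATF4 and CHOP and dampens their activity, had 731, 638, 113, 1001 and 185 normalised reads in cKO 1, 2, 3, 4 and 5, against 745, 716, 1114, 745 and 1092 in WT 1, 3, 4, 5 and 6. Again cKO 3 and cKO 5 were far below the rest, cKO 1 and cKO 4 were within the WT range and cKO 2 lay just under it. The log2 fold change was -1.12 ± 0.57 SE (limma adjusted p = 0.327) and -0.16 without cKO 3 and cKO 5 (limma adjusted p = 0.800).

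Ddit3, which encodes the transcription factor CHOP of stress-induced cell death, had 331, 246, 185, 260 and 171 normalised reads in cKO 1, 2, 3, 4 and 5, against 252, 387, 460, 285 and 304 in WT 1, 3, 4, 5 and 6. cKO 1 and cKO 4 lay within the WT range, and the lowest values were those of cKO 3 and cKO 5. The log2 fold change was -0.51 ± 0.21 SE (limma adjusted p = 0.218) and -0.25 without cKO 3 and cKO 5 (limma adjusted p = 0.654). Ddit3 overlaps Mars, the methionyl-tRNA synthetase gene, on the opposite strand, and Mars averaged 232 normalised reads beside 288 for Ddit3.

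Herpud1, Trib3 and Ddit3 were the 3 members for which cKO 3 and cKO 5 both lay below the other 8 libraries, which held for 7.68% of all genes tested. Chac1, a glutathione-degrading enzyme gene, was the 1 member for which both lay above them, as for 5.4% of all genes tested. It had 12.7, 17.3, 61.8, 27.7 and 63.3 normalised reads in cKO 1, 2, 3, 4 and 5, against 2.05, 61.8, 23.4, 25.9 and 15.2 in WT 1, 3, 4, 5 and 6, so WT 3 was almost level with cKO 3. Its log2 fold change was 0.77 ± 0.72 SE (limma adjusted p = 0.592) and 0.08 without cKO 3 and cKO 5. It was 0.12 without WT 1 alone, 1.21 without WT 3 alone and 0.45 with a pseudocount of 10. cKO 3 and cKO 5 also had low clock gene sums, as given above, and the part of this in the results was not tested.

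The enzymes of amino acid synthesis had log2 fold changes of both signs. Psat1, the serine synthesis aminotransferase, had 163, 103, 138, 160 and 106 normalised reads in cKO 1, 2, 3, 4 and 5, against 72.6, 81.0, 126, 107 and 105 in WT 1, 3, 4, 5 and 6, (log2 fold change 0.44 ± 0.21 SE, limma adjusted p = 0.274). cKO 1, cKO 3 and cKO 4 lay above the WT range, while WT 4, WT 5 and WT 6 overlapped cKO 2 and cKO 5. Phgdh, which catalyses the step at the head of the same pathway, gave -0.12, with 47.3 to 128 normalised reads in cKO and 71.6 to 143 in WT. Asns, asparagine synthetase, gave -0.24, with 275 to 429 normalised reads in cKO and 214 to 761 in WT. Without WT 4, its highest library, it gave -0.0046. The mTORC1 inhibitors Ddit4 and Sesn2 gave -0.29 and -0.30, with overlapping groups. Slc7a11 had 2.38 to 10.7 normalised reads in cKO and 2.17 to 42.9 in WT, where WT 5 alone exceeded 10.7.

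Of the 9 genes of the ATF4 arm tested, 3 had a positive log2 fold change, with a median of -0.24 (-0.055 without WT 4), whereas the 15 chaperones had a median of 0.20. The difference, ATF4 arm minus chaperones, was -0.44, and it was negative under every alternative run, from -0.28 without WT 4 to -0.53 without WT 1. For each library the median deviation of the genes from their 10-library means was also taken in both arms. ATF4 arm minus chaperones was -0.27, -0.16, -0.15, -0.28 and -0.25 in cKO 1, 2, 3, 4 and 5, against -0.44, 0.34, 0.52, 0.27 and 0.23 in WT 1, 3, 4, 5 and 6. All cKO libraries and WT 1 were below 0, and WT 1 was the lowest of the 10. In cKO 4 both medians were high (0.14 for the ATF4 arm and 0.42 for chaperones), and in cKO 3 both were low (-0.30 for the ATF4 arm and -0.15 for chaperones). These are descriptions of listed genes and carry no test.

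**Figure D5:**
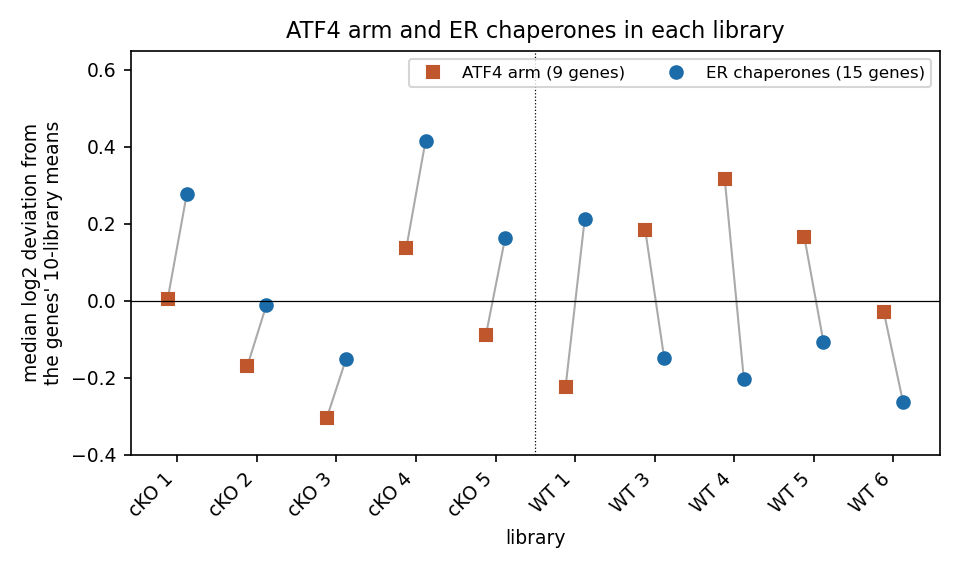
Median log2 deviation of the 9 ATF4 arm genes (squares) and of the 15 ER chaperones (circles) from their means over the 10 libraries, joined within each library, cKO left of WT. Circles lie above squares in all 5 cKO libraries and in WT 1, and below them in the other 4 WT libraries.

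Further genes of the 2 responses were read from the same test in 8 lists, and none of their genes passed it. Of 15 translocon and signal peptidase genes, 12 had a positive log2 fold change, with a median of 0.22. Sec61g, a small subunit of the channel through which proteins enter the ER, had 3291, 1290, 2870, 1523 and 1671 normalised reads in cKO 1, 2, 3, 4 and 5, against 1041, 1209, 1209, 975 and 1156 in WT 1, 3, 4, 5 and 6. Every cKO value lay above every WT value, as for 1.86% of all genes tested (log2 fold change 0.83 ± 0.23 SE, limma adjusted p = 0.0874). The authors' deposited table gives Sec61g an adjusted p of 0.0147. The signal peptidase gene Spcs2 gave 0.44 (limma adjusted p = 0.160). Among 19 further ER folding genes (median 0.10, 12 positive), Selenok gave 0.43 and Erp44, which retains proteins in the early secretory pathway, -0.38. Of 12 further degradation genes, 6 were positive (median -0.04), and Os9, an ER lectin, gave -0.47 (limma adjusted p = 0.216).

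Of 10 further sensors, proteases and CREB-like factors, 8 were negative (median -0.15), among them Creb3l2 at -0.49 (limma adjusted p = 0.186), while Creb3l1 gave 0.64 (limma adjusted p = 0.147). The 7 genes of the eIF2 alpha kinases, phosphatase subunits and eIF2 alpha had a median of 0.06; Eif2s1 and Eif2ak2 gave 0.22 and 0.23. Of 15 further amino acid genes tested, 8 were positive (median 0.003). Slc3a2, the heavy chain shared by Slc7a11 and other amino acid exchangers, had 2162, 3622, 1631, 5511 and 3001 normalised reads in cKO 1, 2, 3, 4 and 5, against 5110, 4562, 5435, 5011 and 5152 in WT 1, 3, 4, 5 and 6. Of the cKO values, that of cKO 4 was the highest of all 10 libraries and the other 4 lay below every WT value (log2 fold change -0.79 ± 0.26 SE, limma adjusted p = 0.126). Pycr1, of proline synthesis, gave -0.58. The 12 aminoacyl-tRNA synthetases had a median of 0.08 with 9 positive, and Lars and Eprs gave 0.47 and 0.32. Of the 10 further stress factors tested, 6 were positive (median 0.03), and Sqstm1, an autophagy receptor, and Jdp2 gave -0.47 and 0.83.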

How the data were processed

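RNA-seq libraries of proximal jejunum from 5 cKO and 5 WT mice were compared. Per the submitters' processing notes, HISAT2 2.0.5, the mm10 genome, featureCounts 1.5.0-p3 and DESeq2 1.20.0 were used. Strand setting, annotation release and treatment of multiply matching reads are not stated in these sources. The deposited signal per gene and library was found from its values to be a read count divided by a size factor per library, since 100% of values were whole within 0.001 of a read after division. The authors' log2 fold change and p-value columns, deposited beside these values, served only for comparison. A further 2 columns of per-sample values match no label and were not used.

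Genes averaging at least 10 were kept, values entered as log2(value + 1), and the genotype effect was estimated by limma 3.58.1 under R 4.3.3 (intensity trend, robust). Adjustment was by Benjamini-Hochberg across the 14062 genes. The added 1 draws low values together, but fold changes of low genes were not always smaller on this scale. Chac1 gave a log2 fold change of 0.77 here and 0.52 in DESeq2, while Derl3 gave -0.12 here and -0.16 in DESeq2. Log values were used because the table holds normalised values; edgeR 4.0.16 and DESeq2 1.42.0 were run on the recovered reads as alternatives, beside other scalings, filters, a pseudocount of 10, a replicate block and left-out libraries. The steps were tested on simulated counts. The members, gene lists and tests were chosen with earlier results of these data known. All members are named, and of every further list at most 4 genes with an adjusted p under 0.05, or where none passed at most 2 by smallest p. Of these, 1 gene is not reported here. Promoters are those of RefSeq, GRCm38.p6, and 4 with a motif were printed: the first in list order of each role group that held one (Hspa5, Herpud1 and Trib3) and the next chaperone (Hsp90b1). Figures were drawn with matplotlib 3.10.9.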

Additional observations from a re-analysis of the deposited data

Results flagged for a closer look

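Among the 64 sets of 5 values (32 genes in cKO and in WT), 1 held a library far from the others by Dixon's criterion. Phgdh, of serine synthesis, had 47.3 normalised reads in cKO 2, against 97.9 to 128 in the other 4 cKO libraries. Chance alone marks about 1 in 20 sets.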

How the results depend on the processing

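None of the 31 members was called by limma as described, by edgeR, without the low-value filter, with a pseudocount of 10, with any single library omitted, or with cKO 3 and cKO 5 omitted. Of them, 1 (Hspa5) was called with library totals, a scaling that moved the median over all genes tested to 0.11 (log2 fold change), against 0.010 with the size factors, and 2 (Hspa5 and Manf) were called in DESeq2. The number of calls over all genes was 186 in the main test, 181 in edgeR, 750 in DESeq2 (335 higher and 415 lower), 145 with library totals (69 higher and 76 lower, against 62 and 124) and 56 with cKO 3 and cKO 5 omitted. Omission of a single library gave 30 to 611 calls: 190, 220, 65, 611 and 111 for cKO 1, 2, 3, 4 and 5, against 94, 43, 30, 67 and 60 for WT 1, 3, 4, 5 and 6. The cause was not tested.

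Signs turned for Xbp1 with library totals (0.061), for Phgdh in the 8 libraries with shared numbers (0.13), and for Atf6 and Atf4 without cKO 3 and cKO 5 (-0.055 and -0.053). With 1 library left out, the log2 fold change ran from -0.025 to 0.095 for Atf4, -0.062 to 0.079 for Atf6, -0.099 to 0.19 for Canx, -0.10 to 0.17 for Dnajb11, -0.088 to 0.19 for Dnajc3, -0.24 to 0.12 for Phgdh and -0.12 to 0.011 for Xbp1. The chaperone median ran from 0.18 to 0.31 and that of the ATF4 arm from -0.30 to -0.05 over all alternatives. Counting the motifs on the given strand alone gave 38.5% for the ER stress response element in chaperone promoters and 18.2% for the C/EBP-ATF response element in the ATF4 arm.

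WT and cKO libraries share the numbers 1, 3, 4 and 5. The Pearson correlations of their deviations across genes were 0.12, 0.02, -0.11 and 0.10, and 1 of the 4 correlated best with its own number. No reference distribution stands beside these 4 values, so they cannot tell whether a shared number marks a pair. In these 8 libraries, a replicate block gave 130 calls over all genes and 88 calls were made without it, with 0 members in both.

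Chac1, Ern2, Derl3 and Slc7a11 had as few as 2, 18, 51 and 2 reads in a library, which limits the precision of their values.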

Other observations

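Other stress programmes of the cell were read in the same test. Of the 7 oxidative stress genes, Gclm, the modifier subunit of the enzyme that starts glutathione synthesis, fell 2.02-fold (log2 fold change -1.01, limma adjusted p = 0.0394). It had 1740, 2957, 1169, 2284 and 1290 normalised reads in cKO 1, 2, 3, 4 and 5, against 3394, 3631, 3368, 3527 and 4034 in WT 1, 3, 4, 5 and 6. Every cKO value lay below every WT value, which held for 3.01% of all genes tested. DESeq2 called Gclm too (-0.925, adjusted p = 0.00647), and the authors' deposited table gives it an adjusted p of 0.00258. The call was lost in edgeR (adjusted p = 0.0570), without cKO 3 and cKO 5 (-0.66, limma adjusted p = 0.174), and without any 1 of WT 1, WT 3, WT 4, WT 5, WT 6, cKO 1, cKO 3 or cKO 5 (limma adjusted p up to 0.102). Of the 5 glucocorticoid-induced genes, all 5 had negative log2 fold changes, with a median of -0.86. Sgk1, a kinase gene induced by corticosteroids, fell 3.09-fold (-1.63, limma adjusted p = 0.0425), with 3244, 4733, 1008, 4559 and 2960 normalised reads in cKO 1, 2, 3, 4 and 5, against 9566, 10192, 8202, 6464 and 11473 in WT 1, 3, 4, 5 and 6. Sgk1 was also called in edgeR (adjusted p = 0.0429) and in DESeq2 (adjusted p = 0.000486). The authors' deposited table gives it an adjusted p of 8.99e-06. Its call held without cKO 3 and cKO 5 (-1.13, limma adjusted p = 0.0354), and was lost without the low-value filter (limma adjusted p = 0.0629). In the 8 libraries with shared numbers the call was lost with a replicate block (limma adjusted p = 0.0916) and without it (limma adjusted p = 0.074). Leaving out any 1 of the 5 WT libraries, cKO 1 or cKO 5 lost the call too (limma adjusted p up to 0.111).

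Of the 6 mitochondrial chaperones and proteases, all 6 had positive log2 fold changes (median 0.27) and none passed the test. Hspe1 and Hspd1, the mitochondrial chaperonins, gave 0.78 (limma adjusted p = 0.112) and 0.48 (limma adjusted p = 0.181). Of the 9 cytosolic heat shock genes, 8 were positive (median 0.19) and none passed the test, and Hsph1, the one with the smallest p, gave 0.85 (limma adjusted p = 0.162). Their summed level was highest in cKO 1, at 88664 normalised reads, against 38538 to 61138 in the other cKO libraries and 33129 to 56139 in WT.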
